A study of Mus musculus with 12 samples.

Results

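The syndecans, the glypicans and the small proteoglycans decorin and biglycan were followed in C57MG cells, a mouse mammary epithelial cell line, after exposure to R-spondin2 and Wnt3a. The members were 10 genes of the 27962 gene names on the array (*Sdc1*, *Sdc2*, *Sdc3*, *Sdc4*, *Gpc1*, *Gpc3*, *Gpc4*, *Gpc6*, *Dcn* and *Bgn*), taken by their symbol in the scanner files, and every probe of each was kept, 18 probes in all. Cells in plain DMEM received 1 of 4 treatments for 24 h. The groups were the carrier protein BSA alone, recombinant human Rspo2 at 100 ng/ml, recombinant mouse Wnt3a at 100 ng/ml, and Rspo2 plus Wnt3a at those same doses. Each group had 3 monolayers with an array apiece, so 12 arrays of total RNA were compared. All came from this 1 cell line, and the p-values measure the spread between its monolayers and arrays. The arrays lay on 3 slides. The 3 BSA arrays and Rspo2 replicate 1 shared slide 1, Rspo2 replicates 2 and 3 shared slide 2 with Wnt3a replicates 1 and 2, and Wnt3a replicate 3 shared slide 3 with the 3 arrays of the combination. BSA therefore never lay beside Wnt3a or the combination, and the comparisons of those groups with BSA were also comparisons of slides. *Axin2*, a feedback inhibitor that Wnt/β-catenin signaling induces, was well above background only on the 3 arrays of the combination, at log2 levels of -2.14, -1.73 and -1.53.

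Syndecans are transmembrane proteins and glypicans are tethered to the outer membrane by a lipid anchor. Both carry heparan sulfate chains, which hold Wnts, R-spondins, FGFs and other ligands at the cell surface. Decorin and biglycan are secreted small leucine-rich proteoglycans with chondroitin or dermatan sulfate chains, which bind collagen fibrils and TGFβ. In the mammary gland, syndecan-1 is known as the surface proteoglycan that Wnt1-driven tumor formation depends on.

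Of the 18 probes, 14 exceeded background clearly on each of the 12 arrays and *Dcn* probe A_51_P334104 on 11 of them. These 15 probes, of 9 genes, were tested, since each exceeded background on every array of 1 group or more. The single *Gpc3* probe (A_52_P23225) and *Dcn* probe A_52_P252726 were well above background on 0 of 12 arrays. *Bgn* probe A_52_P19711 passed on 2 BSA arrays and 1 Rspo2 array. Levels are given as log2 of the intensity relative to the 75th percentile of the same array, so a level of 0 equals that percentile. A probe passed the test at a p under 0.05 from limma, a linear model fit across all probes, after Benjamini-Hochberg adjustment over the 22751 probes tested.

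With Rspo2 alone, 3 of the 15 probes were higher than with BSA, where 10.9% of all tested probes were higher, and 0 were lower, against 5.92% of all. Those 3 were both *Sdc2* probes and *Bgn* probe A_52_P162486. With Wnt3a alone, 2 probes were higher (18.3% of all), again both of *Sdc2*, and 1 of *Gpc6* was lower (13.2% of all). The combination raised 3 probes, of *Sdc2* and *Gpc1*, against 21.9% of all tested probes. It lowered 5 probes, 1 each of *Sdc1*, *Sdc4*, *Gpc4*, *Gpc6* and *Dcn*, against 17.3% of all. At a change of at least 2-fold as well, both *Sdc2* probes stayed higher (1.28% of all) and 0 members were lower (3.79% of all). The median difference between the combination and BSA was -0.28 on the log2 scale over the 15 probes and 0.04 over all tested probes. These 3 comparisons share the BSA arrays, so they are not independent of each other. Between the combination and Wnt3a alone, the 2 *Sdc2* probes were higher (1.78% of all) and 0 of 15 were lower (2.49% of all). The interaction is the change with both proteins less the sum of the changes with each. It passed the test for 0 of the 15 probes, against 3.58% of all probes above 0 and 5.31% below it.

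**Figure D1:**
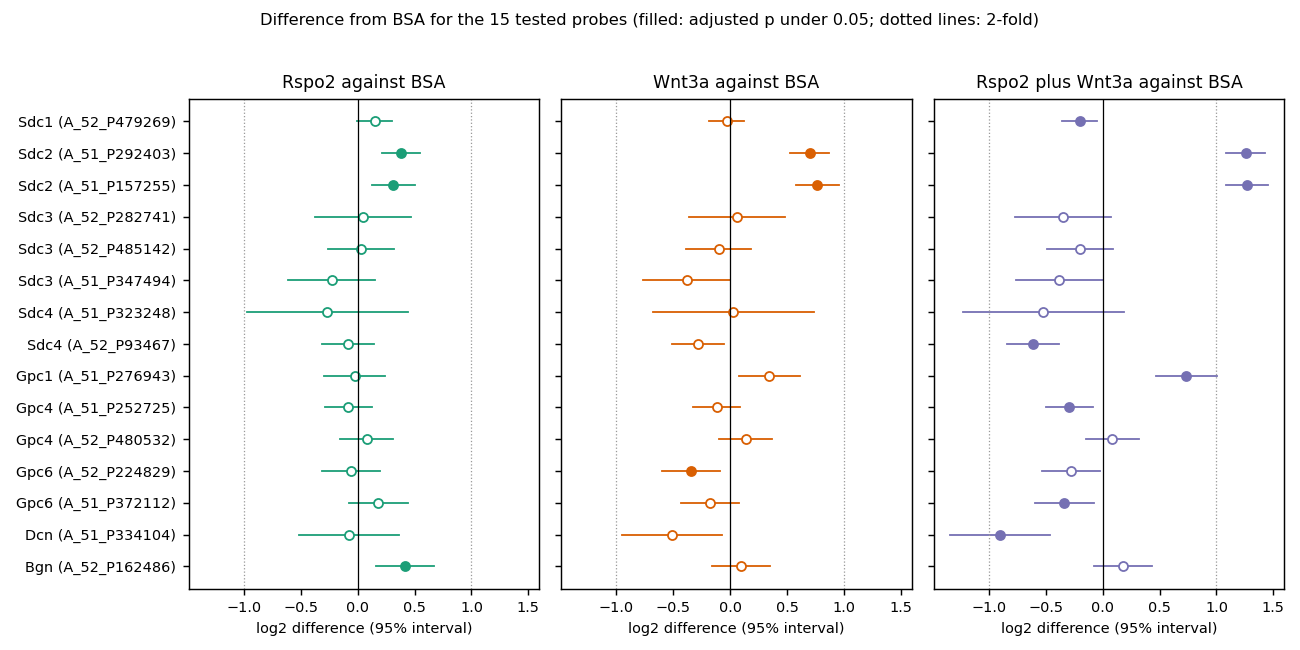
Log2 difference from BSA (horizontal axes, with 95% intervals) of the 15 tested probes, 1 panel for each treatment; filled points had an adjusted p under 0.05 and dotted lines mark 2-fold. Both *Sdc2* probes lie above 0 in all 3 panels and pass 1 only with the combination, while *Sdc4* probe A_52_P93467 and *Dcn* lie farthest below 0 with the combination among the points past the test.

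*Sdc2* encodes syndecan-2, also called fibroglycan, which is known from mesenchymal cells. Its 2 probes were placed by the array design on chromosome 15, A_51_P292403 at positions 33141162 to 33141221 and A_51_P157255 at 33143072 to 33143131. The genome build behind those positions was not given in the sources used here. The level of A_51_P292403 was 3.24, 3.13 and 3.08 with BSA, 3.50, 3.54 and 3.54 with Rspo2, 3.76, 3.86 and 3.92 with Wnt3a, and 4.44, 4.47 and 4.30 with both. The levels of the 4 groups did not overlap and lay in the order BSA, Rspo2, Wnt3a, combination. A_51_P157255 gave the same order, at 2.64, 2.62 and 2.64, then 2.84, 3.02 and 2.97, then 3.41, 3.54 and 3.25, and last 3.90, 3.95 and 3.85. Its groups also did not overlap.

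The rise of *Sdc2* with the combination was 1.26 ± 0.08 on the log2 scale (SE, n = 3 arrays per group), or 2.39-fold, on A_51_P292403 (limma, adjusted p = 1.250e-06). On A_51_P157255 it was 1.27 ± 0.09, or 2.41-fold (limma, adjusted p = 2.426e-06). Wnt3a alone raised the 2 probes by 0.70 ± 0.08 and 0.77 ± 0.09 (limma, adjusted p = 2.918e-04 and 2.984e-04). Rspo2 alone raised them by 0.38 ± 0.08 and 0.31 ± 0.09 (limma, adjusted p = 0.0171 and 0.0349). Adding Rspo2 to Wnt3a raised them by 0.56 ± 0.08 and 0.50 ± 0.09 (limma, adjusted p = 0.0021 and 0.0072). The interaction was 0.17 on A_51_P292403, with a 95% interval of -0.07 to 0.41, and 0.19 on A_51_P157255, with an interval of -0.08 to 0.46. Neither passed the test, and both intervals hold 0. In RNA from whole monolayers, a larger share of cells with a transcript and more of it per cell cannot be told apart. The rise with Rspo2 lost its call on A_51_P292403 without BSA replicate 3 (0.35) or Rspo2 replicate 3 (0.38). On A_51_P157255 it did so without any of the BSA arrays (0.31 to 0.32), Rspo2 replicate 2 (0.27), Rspo2 replicate 3 (0.30) or combination replicate 2 (0.31).

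**Figure D2:**
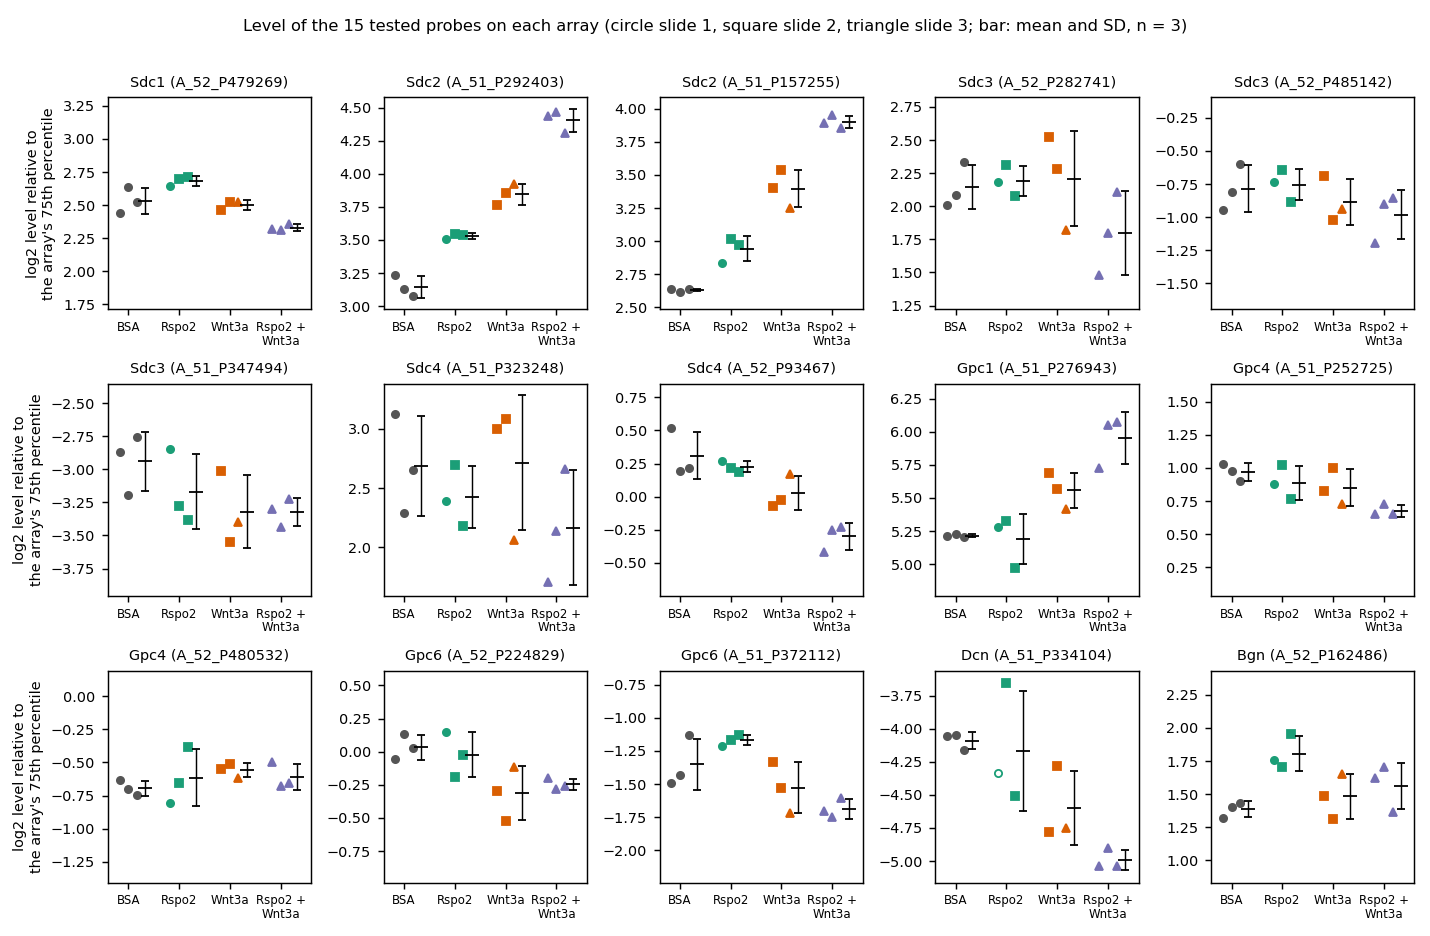
Log2 level relative to the array's 75th percentile (vertical axes) of the 15 tested probes on each of the 12 arrays, by treatment; symbols mark the slide, an open symbol an array not well above background, and black bars the mean and SD of 3 arrays. The *Sdc2* panels climb from BSA to the combination without overlap, whereas the arrays of *Sdc3* and of *Sdc4* probe A_51_P323248 spread within every group.

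*Sdc4* encodes syndecan-4, a component of focal adhesions that also binds R-spondins. Probe A_52_P93467 gave levels of 0.52, 0.20 and 0.22 with BSA, 0.27, 0.22 and 0.19 with Rspo2, -0.07, -0.02 and 0.17 with Wnt3a, and -0.42, -0.25 and -0.23 with the combination. The combination arrays lay below the other 9. They were lower than BSA by 0.61 ± 0.10, or 1.53-fold (limma, adjusted p = 0.0012), while the difference with Wnt3a alone was -0.28 and did not pass (limma, adjusted p = 0.0604). The other *Sdc4* probe, A_51_P323248, ranged from 2.29 to 3.13 with BSA and from 1.70 to 2.67 with the combination, so its groups overlapped. Its difference was -0.52 with a 95% interval of -1.23 to 0.19, which holds the value of the first probe.

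*Sdc1* encodes syndecan-1, the main syndecan of epithelia. Its single probe, A_52_P479269, gave levels of 2.44, 2.63 and 2.52 with BSA, 2.64, 2.70 and 2.71 with Rspo2, 2.46, 2.52 and 2.53 with Wnt3a, and 2.32, 2.31 and 2.36 with the combination. The combination arrays were the lowest 3 of the 12, and the Rspo2 arrays the highest. The combination lowered the probe by 0.20 ± 0.07, or 1.15-fold (limma, adjusted p = 0.0411). That call was lost when any of 9 arrays was left out, namely BSA replicates 2 and 3, Rspo2 replicates 1 and 2, Wnt3a replicates 1 and 2 and the 3 combination replicates (-0.22 to -0.15). The interaction was -0.32, with a 95% interval of -0.54 to -0.11, and did not pass after adjustment (limma, adjusted p = 0.0648).

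*Sdc3* encodes syndecan-3, known chiefly from neural tissue. Its 3 probes passed in 0 of the 5 comparisons. With the combination they differed from BSA by -0.35, -0.20 and -0.38 on A_52_P282741, A_52_P485142 and A_51_P347494, and each 95% interval held 0. On A_52_P282741 the spread was wide, with levels from 1.82 to 2.52 within the Wnt3a group alone.

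*Gpc1* encodes glypican-1, a co-receptor for FGFs. Probe A_51_P276943 gave levels of 5.22, 5.23 and 5.21 with BSA, 5.28, 5.33 and 4.97 with Rspo2, 5.69, 5.57 and 5.42 with Wnt3a, and 5.72, 6.05 and 6.08 with the combination. The combination arrays lay above all others, although its replicate 1 stood only just above the highest Wnt3a array. The combination raised *Gpc1* by 0.73 ± 0.12, or 1.66-fold (limma, adjusted p = 0.001). The Wnt3a arrays also lay above the BSA arrays, by 0.34 ± 0.12, without passing the test (limma, adjusted p = 0.0532). Rspo2 alone differed by -0.02, with a 95% interval of -0.29 to 0.25. The interaction of 0.41 had an interval of 0.04 to 0.79 and did not pass after adjustment (limma, adjusted p = 0.14).

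*Gpc4* and *Gpc6* encode glypicans that are known to modulate Wnt signaling in development and synapse formation in the brain. *Gpc4* probe A_51_P252725 gave levels of 1.03, 0.98 and 0.90 with BSA and of 0.65, 0.73 and 0.65 with the combination, with no overlap. Its fall of 0.29 ± 0.09 passed the test (limma, adjusted p = 0.0289), but not without BSA replicate 1 (-0.26), BSA replicate 2 (-0.29) or any 1 of the combination arrays (-0.32 to -0.28). The other *Gpc4* probe, A_52_P480532, differed by 0.08 with a 95% interval of -0.15 to 0.31, so the 2 probes did not give the same result. *Gpc6* probe A_51_P372112 gave levels of -1.49, -1.43 and -1.13 with BSA and of -1.70, -1.75 and -1.60 with the combination, a fall of 0.34 ± 0.12 (limma, adjusted p = 0.0411). Probe A_52_P224829 of the same gene fell with Wnt3a alone, by 0.35 ± 0.12 (limma, adjusted p = 0.0423), and its difference of -0.28 with the combination did not pass (limma, adjusted p = 0.0786). Each of these *Gpc6* calls was lost when any of 9 arrays was left out. For A_51_P372112 these were BSA replicates 2 and 3, Wnt3a replicate 2, the 3 Rspo2 and the 3 combination arrays (-0.38 to -0.23). For A_52_P224829 they were the 3 BSA and the 3 combination arrays, Rspo2 replicate 3 and Wnt3a replicates 1 and 2 (-0.39 to -0.24). *Gpc3*, which encodes a glypican that restrains Hedgehog signaling and growth, was not well above background on any array, so no change can be given.

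*Dcn* encodes decorin. Probe A_51_P334104 was dim, with intensities between 29 and 70 units on the 12 arrays, and was not well above background on Rspo2 replicate 1. Its levels were -4.06, -4.05 and -4.16 with BSA, -4.34, -3.66 and -4.51 with Rspo2, -4.78, -4.28 and -4.75 with Wnt3a, and -5.04, -4.90 and -5.04 with the combination. The combination arrays lay below all others, and the Rspo2 arrays straddled the BSA arrays. The fall with the combination was 0.90 ± 0.20, or 1.87-fold (limma, adjusted p = 0.005), and the difference of -0.51 with Wnt3a alone did not pass (limma, adjusted p = 0.0724). Of the 10 fibroblast or mesenchymal markers, 4 were called lower with the combination, where 17.3% of all tested probes were lower. *Pdgfra* fell by 1.37, *Col3a1* by 0.85, *Pdgfrb* by 0.60 and *Twist2* by 0.33 (limma, adjusted p = 8.769e-06, 0.0016, 0.0015 and 0.0326). This comparison with BSA was also one of slides, and no marker values with slide as a term are given. *Vim*, *Col1a1* and *Col1a2* did not pass, and *Thy1*, *Fap* and *Lum* were too dim to test. The part of these changes in the *Dcn* result was not tested.

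*Bgn* encodes biglycan. Probe A_52_P162486 gave levels of 1.32, 1.40 and 1.43 with BSA, 1.76, 1.71 and 1.95 with Rspo2, 1.49, 1.31 and 1.65 with Wnt3a, and 1.62, 1.70 and 1.36 with the combination. The 3 Rspo2 arrays were the highest of the 12, and their rise over BSA of 0.42 ± 0.12, or 1.34-fold, passed the test (limma, adjusted p = 0.0356). The call was lost when any of the 3 BSA or 3 Rspo2 arrays was left out (0.35 to 0.47). With the combination the difference from BSA was 0.18 with a 95% interval of -0.08 to 0.43. *Bgn* probe A_52_P19711 read higher with BSA, by 1.41-fold against Wnt3a and by 1.56-fold against the combination. These values are taken against the dimmest signals well above background on the arrays of the lower group. The BSA mean includes 1 array below background, so they are not strict bounds, and the probe was not tested. Probe A_52_P162486 differed from BSA the other way, by 0.10 with Wnt3a and 0.18 with the combination, without passing.

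The promoters below are those of the members that passed the test in some comparison and have an entry in the RefSeq promoter table (build GRCm38.p6), each of 300 bases from 250 before to 50 after the annotated start. They are shown so that genes with a probe called lower with the combination can be set beside the one with a probe called higher with Rspo2. The former are *Sdc1*, *Sdc4* and *Gpc4*, and the latter is *Bgn*. The other probes of *Sdc4* and *Gpc4* did not pass, and all of these calls were lost with slide as a term. Capitals mark CTTTGA or CTTTGT on either strand, the core letters bound by TCF/LEF factors, and everything else is in lower case.
Sdc1, chr12:8771146-8771445, plus strand: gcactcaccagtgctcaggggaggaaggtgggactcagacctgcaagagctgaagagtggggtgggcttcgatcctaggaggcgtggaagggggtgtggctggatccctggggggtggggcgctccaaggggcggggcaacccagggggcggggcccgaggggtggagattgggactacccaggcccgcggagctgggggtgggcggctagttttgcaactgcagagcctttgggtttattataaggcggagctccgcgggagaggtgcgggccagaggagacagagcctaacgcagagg
Sdc4, chr2:164443139-164443438, minus strand: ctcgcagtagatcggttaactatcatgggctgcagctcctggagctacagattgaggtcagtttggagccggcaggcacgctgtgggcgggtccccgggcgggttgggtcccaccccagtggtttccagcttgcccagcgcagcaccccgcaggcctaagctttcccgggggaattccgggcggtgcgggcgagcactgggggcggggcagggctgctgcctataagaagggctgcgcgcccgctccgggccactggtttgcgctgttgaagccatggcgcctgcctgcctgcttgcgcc
Gpc4, chrX:52164874-52165173, minus strand: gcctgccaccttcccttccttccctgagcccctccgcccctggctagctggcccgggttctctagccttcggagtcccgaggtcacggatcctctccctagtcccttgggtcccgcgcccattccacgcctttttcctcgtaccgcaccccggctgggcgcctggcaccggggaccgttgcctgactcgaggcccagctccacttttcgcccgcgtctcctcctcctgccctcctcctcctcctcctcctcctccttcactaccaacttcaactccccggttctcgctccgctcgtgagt
Bgn, chrX:73483351-73483650, plus strand: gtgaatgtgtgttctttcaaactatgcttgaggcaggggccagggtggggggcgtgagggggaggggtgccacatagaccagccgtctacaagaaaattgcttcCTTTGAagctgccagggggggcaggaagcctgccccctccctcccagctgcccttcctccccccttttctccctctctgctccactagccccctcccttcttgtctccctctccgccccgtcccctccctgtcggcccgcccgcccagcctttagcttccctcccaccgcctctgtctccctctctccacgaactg
Of the 6 members with an entry, which also include *Sdc3* and *Gpc3*, *Bgn* alone held the letters, at 1 place, against 31.2% of the 32851 promoters in the table. *Sdc2*, *Gpc1*, *Gpc6* and *Dcn* had no entry. A match is a description of the sequence, and its absence from this window says nothing of binding elsewhere.

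With slide as a further term in the fit, both *Sdc2* probes kept their call against BSA in the combination, at 1.11 on A_51_P292403 (limma, adjusted p = 0.0192) and 1.33 on A_51_P157255 (limma, adjusted p = 0.0052). The other 6 members called in that comparison lost theirs, at 1.07 for *Gpc1*, -0.30 for *Sdc1*, -0.12 for *Gpc4*, -0.11 for *Gpc6*, -0.76 for *Sdc4* and -0.94 for *Dcn*. The other *Sdc4* probe, A_51_P323248, passed in neither fit and stood at 0.42 with slide as a term, the opposite sign. The calls with Rspo2 alone and with Wnt3a alone were lost too. Between the combination and Wnt3a, *Sdc2* kept its call on A_51_P157255 (0.65, limma, adjusted p = 0.0145) and lost it on A_51_P292403 (0.48, limma, adjusted p = 0.0914). *Sdc2* then differed by 0.36 and 0.21 with Rspo2 and by 0.62 and 0.68 with Wnt3a, on A_51_P292403 and A_51_P157255 in that order. Among all 22751 tested probes the same term left 31 higher and 67 lower with Rspo2. It left 43 and 138 with Wnt3a, 184 and 388 with the combination, and 142 and 171 between the combination and Wnt3a. Within slide 3, the combination arrays exceeded the Wnt3a array by 0.48 and 0.65 on the 2 *Sdc2* probes and by 0.53 on *Gpc1*. They differed from it by -0.24 on *Dcn*, by -0.47 on *Sdc4* probe A_52_P93467 and by 0.11 on *Sdc4* probe A_51_P323248. Within slide 1, the Rspo2 array exceeded the BSA mean by 0.36 and 0.21 on *Sdc2* and by 0.37 on *Bgn*. This fit rests on Rspo2 replicate 1 and Wnt3a replicate 3, the only arrays that link slides 1 and 3 to slide 2.

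**Figure D3:**
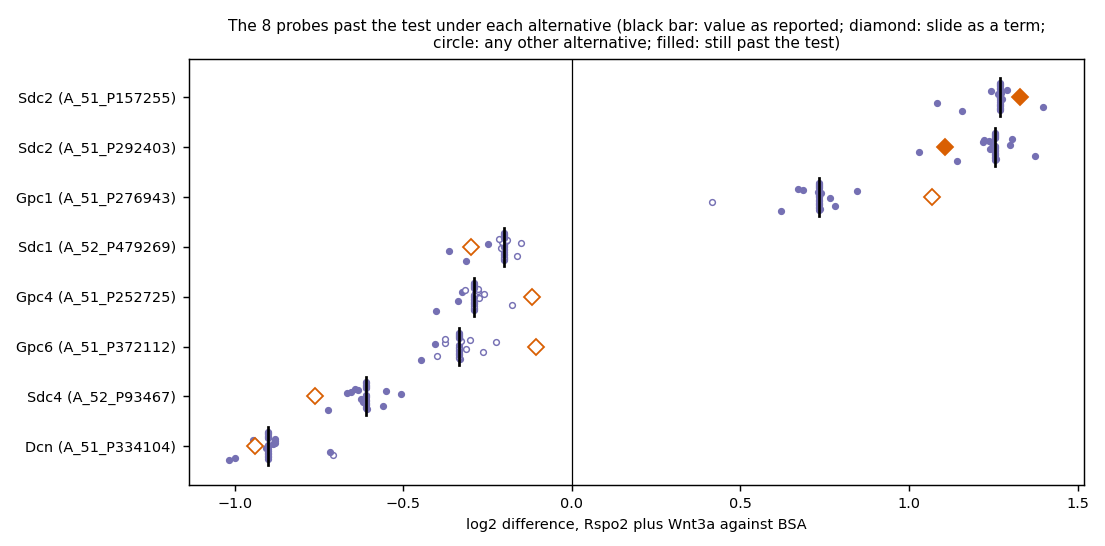
Log2 difference between the combination and BSA (horizontal axis) of the 8 probes past the test, as reported (black bar), with slide as a term (diamond) and under each other alternative (circles); filled symbols were past the test. The *Sdc2* symbols are all filled and lie above 1, whereas those of *Sdc1*, *Gpc4* and *Gpc6* are mixed and near 0.

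The enzymes and other core proteins of proteoglycan biology were read from 4 lists with 96 tested probes of 61 genes. With Rspo2 alone, 6 of the 96 probes were higher and 9 lower than with BSA, against 10.9% and 5.92% of all tested probes. Wnt3a alone raised 13 and lowered 21, against 18.3% and 13.2% of all. The combination raised 18 and lowered 28, against 21.9% and 17.3% of all. The 13 and the 18 each include *Hs3st1*, which entered the test only through the combination, where it is high. *Hs3st1* was below background on all BSA arrays, so its difference with Wnt3a is not read as a call. Slide as a term was an alternative chosen for the lists after seeing the data. With it, 0 of the 96 passed with Rspo2 alone, 0 with Wnt3a alone and 4, *Hs3st1* among them, with the combination. Few of all 22751 tested probes passed there either. With Rspo2 31 were higher and 67 lower, with Wnt3a 43 and 138, and with the combination 184 and 388. The median difference with the combination was -0.08 over the 96 probes.

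Among the other core proteins (19 probes of 13 genes), the combination raised 9 probes and lowered 5, where 21.9% of all tested probes were higher and 17.3% lower. The median difference in this list was 0.34. *Omd*, which encodes the small leucine-rich protein osteomodulin, rose by 1.81 ± 0.13 (limma, adjusted p = 3.452e-06). *Prelp*, of the same family, rose by 1.12 ± 0.20 and 0.56 ± 0.12 on its 2 probes, and *Nrp1*, a semaphorin and VEGF receptor that can carry a glycosaminoglycan, by 1.09 ± 0.11, 0.78 ± 0.10 and 0.71 ± 0.07 on 3. The other 3 raised probes were all of *Cd44*, the hyaluronan receptor. The 5 lowered probes were of *Agrn* (-1.11 ± 0.15), *Tgfbr3* (-1.09 ± 0.22), *Col18a1* (-0.87 ± 0.17 and -0.66 ± 0.19) and *Podnl1* (-0.34 ± 0.09). Agrin and collagen XVIII are basement membrane heparan sulfate proteoglycans and betaglycan, the *Tgfbr3* product, is a TGFβ co-receptor. Of these, the fit with slide as a term kept *Omd* (1.91) and *Nrp1* probe A_51_P469285 (0.87).

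*Ogn*, which encodes osteoglycin, another small leucine-rich protein, was higher with each protein alone than with both. Its levels were 2.87, 2.72 and 2.66 with BSA, 3.52, 3.65 and 3.38 with Rspo2, 3.03, 3.29 and 3.01 with Wnt3a, and 2.50, 2.70 and 2.63 with the combination. The Rspo2 and Wnt3a arrays lay above every BSA array, and the combination arrays overlapped with BSA. *Ogn* rose by 0.77 ± 0.11 with Rspo2 and by 0.36 ± 0.11 with Wnt3a (limma, adjusted p = 0.0045 and 0.0259) and differed by -0.14 with both (limma, adjusted p = 0.3373). Its interaction of -1.26 ± 0.15 passed (limma, adjusted p = 0.0015). With slide as a term all 3 of these calls were lost, at 0.77 with Rspo2, 0.41 with Wnt3a and -1.17 for the interaction (limma, adjusted p = 0.0893, 0.4203 and 0.0573).

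In the list of linkage and heparan sulfate assembly (29 probes of 18 genes), the combination raised 4 probes (21.9% of all) and lowered 8 (17.3% of all). *B3gat3*, which encodes the glucuronosyltransferase that completes the linkage to the core protein, fell by 1.52 ± 0.17 (limma, adjusted p = 8.375e-05). *Hs6st1*, a 6-O-sulfotransferase, fell by 0.80 ± 0.11, and *Ndst1*, an N-deacetylase and N-sulfotransferase, by 0.65 ± 0.10 on probe A_52_P79947, with 2 more *Ndst1* probes lowered. The chain polymerases *Ext1* and *Ext2* (-0.44 ± 0.07 and -0.49 ± 0.08) and the xylosyltransferase *Xylt2* (-0.54 ± 0.18) made up the rest. Rises were found for *Glce* (0.47 ± 0.09), the epimerase, and for *Papss1* (0.37 ± 0.08) and *Ugdh* (0.34 ± 0.06), which make the sulfate and glucuronate donors. The fourth was *Hs3st1*, a 3-O-sulfotransferase, which fell outside the naming rule because some arrays were below background and was named after its values were seen. It was below background on the 3 BSA and 3 Rspo2 arrays, at -5.62, -4.86 and -5.14 with Wnt3a, of which the first was below background, and at -2.01, -1.99 and -1.94 with the combination. With the combination *Hs3st1* was 8.29-fold above the dimmest signals well above background on the BSA arrays, a value that is not a strict bound. It entered the test only through the combination, where it is high, so its p-value is not given; without it 3 probes of the list were raised. With slide as a term, *B3gat3* kept its call (-1.82, limma, adjusted p = 0.047).

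In the list of chondroitin and dermatan sulfate assembly (15 probes of 12 genes), 0 probes were raised by the combination (21.9% of all) and 3 were lowered (17.3% of all). These were the sulfotransferases *Chst3* (-0.65 ± 0.11) and *Chst14* (-0.30 ± 0.08) and the chain-initiating *Csgalnact1* (-0.49 ± 0.09). In the list of release and remodelling (33 probes of 18 genes), 5 probes were raised (21.9% of all) and 12 lowered (17.3% of all). *Notum*, a secreted enzyme that inactivates Wnts and binds glypicans, gave levels of -2.50, -2.93 and -3.20 with BSA and of -1.75, -1.84 and -1.80 with the combination, with the Rspo2 and Wnt3a arrays between -3.10 and -2.82. *Notum* rose by 1.08 ± 0.14 with the combination (limma, adjusted p = 2.440e-04). The other raised probes were of *Ids*, on 2 probes, *Synj2bp* and *Sdcbp*, which encodes syntenin, the adaptor that binds syndecan tails. The largest falls in the list were those of *Sgsh* (-0.84 ± 0.13), *Naglu* (-0.65 ± 0.08) and *Bmp1* (-0.64 ± 0.08). Sulfamidase and NAGLU are lysosomal enzymes of heparan sulfate breakdown, and BMP1 is the proteinase that processes biglycan and other matrix precursors. With slide as a term, 0 of these 17 calls and 0 of the 3 in the chondroitin list were kept. The same term left 184 higher and 388 lower of all 22751 tested probes.

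**Figure D4:**
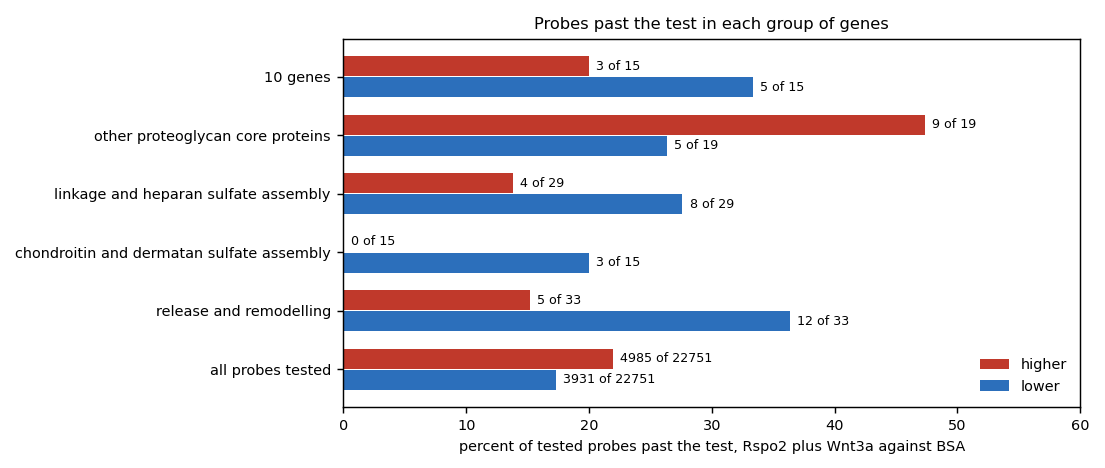
Percent of tested probes past the test (horizontal axis), higher or lower with the combination than with BSA, in the 10 genes, the 4 lists and all probes; each bar is labelled with its count. Of all tested probes 21.9% were higher and 17.3% lower. The other core proteins had 9 of 19 probes higher and 5 lower. The 10 genes, with 5 of 15 lower, and the release list, with 12 of 33, had more lower than higher. So did the linkage list, with 8 of 29 lower, and the chondroitin list, with 3 of 15. The 4 higher in the linkage list include *Hs3st1*, below background with BSA.

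The probe whose group means spread most, among members well above background on all arrays, was *Sdc2* A_51_P157255, over 1.27 on the log2 scale. Over the 12 arrays and 14012 named probes, the levels most correlated with it were those of *Plat* (Pearson r = 0.994), *Adk* (0.991), *Edn1* (0.991), *Mtap* (0.991) and *Ppfibp2* (0.990). The 12 arrays share 4 treatments and 3 slides, so these values describe the pattern over groups.

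C57MG is labelled a mammary epithelial line, and its defining markers were unevenly present. Of 8 luminal markers 2 were well above background on all 12 arrays, and *Cdh1* and *Csn2* were below it on all of them. Of 6 basal markers 3 were above it on all arrays (*Krt14*, *Trp63* and *Acta2*), as were 7 of 10 fibroblast or mesenchymal markers, *Vim* and *Col1a1* among them, with *Thy1* and *Lum* below background on all. The summed level of the basal markers, in multiples of the 75th percentile, differed between BSA and the other groups, although its members did not move together. On the BSA arrays it ranged from 131.9 to 139.7, and on those of the combination from 219.5 to 257.2. The ranges of Rspo2 (169.9 to 191.8) and Wnt3a (184.4 to 205.5) lay between these and overlapped. BSA and the combination lay on different slides, so slide and treatment cannot be told apart in these sums. A sum is weighted to its brightest probes. With the combination *Acta2* and *Krt14* rose, by 0.78 and 1.24 (limma, adjusted p = 7.259e-05 and 8.285e-06), *Trp63* fell by 0.40 (limma, adjusted p = 0.0143), and *Krt5* differed by 0.22 without passing (limma, adjusted p = 0.3867). *Krt5*, a dim probe, differed from BSA by -0.84 with Rspo2 and by -0.57 with Wnt3a (limma, adjusted p = 0.0212 and 0.0405). The summed mesenchymal markers ranged from 229.9 to 261.3 over all arrays, and the luminal ones from 0.31 to 0.51. Beneath these ranges the 4 mesenchymal markers given with *Dcn* fell with the combination, and so did the luminal keratin *Krt8*, by 1.15 (limma, adjusted p = 3.656e-04). These markers were named after their values were seen. The luminal *Esr1* and *Prlr* differed by 0.08 and -2.839e-04 with the combination, without passing (limma, adjusted p = 0.8067 and 0.9985). The remaining luminal markers were too dim to test. Of 4 endothelial markers 1 (*Cdh5*) was above background on all arrays, and their sum was 2.43 to 2.60 with BSA and 1.63 to 1.89 on the other arrays. Blood cell markers, with 2 of 6 above background on all arrays, summed to 0.41 to 0.53. Adipocyte markers, with 1 of 4, summed to 0.29 to 0.37 with the combination and 0.49 to 0.77 elsewhere. The part of these changes in the results above was not tested.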

How the data were processed

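RNA of 12 C57MG monolayers had been hybridized to 1-color Agilent arrays and read with Agilent Feature Extraction 9.5.3.1, per the submitters' processing notes. The deposited scanner files hold each spot's intensity, which the authors' software had background-subtracted, with its flags. A deposited table holds the same arrays as a ratio to the array's 75th percentile and served as an alternative. Ratios recomputed from the spot intensities closely matched it for 71.9% of probes on Rspo2 replicate 3. The match was 84.3% to 87.8% on the combination arrays and 94.8% to 99.9% on the others. Spots flagged as uneven or outlying (1327 of 520548) were left out, spots of 1 probe were averaged, and log2 of the intensity less log2 of the array's 75th percentile (774 to 1146 units) was used. Between 51.3% and 64.2% of probes per array were well above background. The 22751 probes of 41174 that were so on all 3 arrays of a group were fitted over all 12 arrays with limma 3.58.1 in R 4.3.3, in 5 comparisons, with Benjamini-Hochberg adjustment. The script was tested on simulated data. Only 3 arrays a group limit the precision.

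Groups came from the labels. All probes of the 10 genes are reported. From each of 4 lists, up to 3 of the largest rises and falls past the test and well above background were named by rule. Further called probes, such as those of *Cd44*, *Ext1*, *Ext2*, *Xylt2* and *Sdcbp*, lie outside that rule and were named to fill out the counts. The members and lists were chosen with earlier results of these data known. No pairing of the arrays by replicate number was seen, and none was used in the main fit. In all, 30 alternatives were run, among them slide, background, scaling, filter, the methods' t-test and each array left out. Gene symbols are those of the array design. Promoters are from RefSeq (GRCm38.p6).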

Additional observations from a re-analysis of the deposited data

Results flagged for a closer look

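The interaction term passed for 5 of the 96 probes of the surrounding lists, 3 above 0 and 2 below. The shares of all tested probes were 3.58% and 5.31%. By that term the change with Rspo2 differed between cells with and without Wnt3a. The 3 above 0 include *Hs3st1*, which is not read as a call, and the others are *Notum* and *Nrp1*. *Hs3st1* gave a fitted difference of 2.81, which is no bound and is given with no test, because the BSA and Rspo2 arrays were below background and the probe entered only through the combination. *Ogn* gave -1.26 ± 0.15 (limma, adjusted p = 0.0015) and *Notum* 1.20 ± 0.20 (limma, adjusted p = 0.0083). *Podnl1* gave -0.52 ± 0.13 (limma, adjusted p = 0.0338) and *Nrp1* probe A_51_P469285 gave 0.43 ± 0.10 (limma, adjusted p = 0.0284). When slide was added to the fit, the calls of *Ogn*, *Notum*, *Podnl1* and *Nrp1* were lost. That fit left 87 above 0 and 82 below among all 22751 tested probes.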

How the results depend on the processing

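As reported, 3 member probes passed with Rspo2, 3 with Wnt3a, 8 with the combination, 2 between the combination and Wnt3a, and 0 in the interaction. Slide as a term left 0, 0, 2 and 1 in the first 4, and of the 46 list probes called with the combination it left 4, 1 of them *Hs3st1*, which was below background with BSA. With slide as a term, 31 of all 22751 tested probes were higher and 67 lower with Rspo2, and 43 and 138 with Wnt3a. With the combination 184 were higher and 388 lower against BSA, and 142 and 171 against Wnt3a. For the alternatives that follow, shares over all tested probes are not given, so the member counts cannot be set against them. Slide as a random block left 1 with Rspo2 and 5 with the combination. Normexp background left 0, 1, 4 and 0, as did the methods' t-test after adjustment. That t-test unadjusted with 2-fold, and a call that needs 2-fold too, each left 0, 0, 2 and 0. The brightest probe per gene gave 5 with the combination and 1 against Wnt3a. With Rspo2, quantile normalization, no filter on dim probes and the replicate block gave 0, and the looser flag, the groups compared alone and a 75th percentile over detected probes gave 1. That percentile moved the median of all probes with Wnt3a to -0.12 and gave 5 calls there, as did a variance trend. The groups compared alone gave 1 between the combination and Wnt3a. Quantile normalization and the variance trend gave 1 interaction each. Leaving out 1 array gave 0 to 3 with Rspo2, 2 to 5 with Wnt3a, 5 to 8 with the combination, 2 to 3 against Wnt3a and 0 to 1 interactions. Same-numbered arrays correlated by -0.52 to 0.32 in their deviations, and differently numbered ones by -0.53 to 0.55. No pairing by number was seen, though 3 arrays a group cannot exclude one. The interaction was not run with the t-test or the groups compared alone. No call reversed its direction, and causes were not tested.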
